A study of Mus musculus with 7 samples.

Results

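A set of 9 genes that mark the GABAergic neuron lineage of the ventral forebrain were followed in cultured oligodendroglia with and without the transcription factor KLF13. They were taken by symbol from the 49315 genes of the count files, in which all 9 were found: the homeobox genes *Dlx1*, *Dlx2*, *Dlx5* and *Dlx6*, the zinc finger gene *Sp9*, the LIM homeobox gene *Lhx6*, the glutamate decarboxylase genes *Gad1* and *Gad2*, and the vesicular transporter gene *Slc32a1*. Membership rests on the lineage and on no threshold of a measured value, but the set was chosen with earlier results of these data known. It was used to ask whether the neuron genes that were higher in the knockout cultures belonged to this lineage.

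GABAergic neurons of the forebrain arise from progenitors in the ganglionic eminences of the ventral telencephalon. There, DLX transcription factors are switched on in a cascade from dividing progenitors to young neurons and turn on the genes for GABA synthesis. The same ventral progenitor zones also give rise to part of the oligodendrocyte progenitor cells (OPC).

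Both groups were primary mouse oligodendroglia obtained from brain, prepared from newborn pups of both sexes by way of mixed glial cultures, shake-off and microglia depletion, and kept in SATO differentiation medium with thyroid hormones for 6 days. The control group held 4 libraries with wildtype *Klf13* and the knockout group 3 libraries from mice that lack *Klf13*. The deletion was constitutive, so that neurons, astrocytes and oligodendroglia of a culture all lacked the gene, and the RNA came from whole cultures. The labels call the libraries of a group biological replicates and do not say what each was made from, so that p-values measured the spread between these libraries.

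The libraries held between 24507471 and 59596479 counts on genes. *Klf13*, on chromosome 7, fell from 11338 ± 645 to 880 ± 79.8 normalized counts (mean ± SD of 4 control and 3 knockout libraries, log2 fold change -3.69 ± 0.09 SE, adjusted p = 6.77e-06 in edgeR's quasi-likelihood test). All 10 oligodendrocyte genes examined (such as *Mbp* and *Mag*) fell (median log2 fold change -2.51, adjusted p = 0.00384 or less), whereas the summed level of 8 OPC genes overlapped between the groups (1148 to 1294 in controls and 1146 to 1362 in knockouts, in RPKM, that is counts per kb of exon scaled to library size). Between 6.03% and 18.0% of the counts of a library lay on 3 genes on which ribosomal RNA reads collect. Both groups held libraries above and below 10%. The 8 lineage genes other than *Lhx6* had log2 ratios of 1.51 to 2.42 in the 2 controls and 2 knockouts above 10%. In the 2 controls and 1 knockout below 10% they had 1.69 to 2.45, and *Lhx6* had 0.42 and 1.34, respectively. That 1 knockout was replicate 2, the highest knockout in all 9 genes. In these 8 genes every knockout exceeded every control, so that any split of the libraries gives higher knockouts. The split therefore does not test the ribosomal RNA share. Normalized counts are raw counts brought to the mean TMM-scaled size of the 7 libraries.

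Of the 9 genes, 7 lay on chromosome 2 and 2 on chromosome 6, and all were annotated as protein-coding in GRCm38. *Dlx1* (chr2:71528113-71533981, plus strand) and *Dlx2* (chr2:71543408-71546754, minus strand) form a convergent pair with 9.427 kb between them, and *Dlx6* (chr6:6863334-6868568, plus strand) and *Dlx5* (chr6:6877805-6882085, minus strand) form another such pair, with 9.237 kb between them. *Gad1* (chr2:70553072-70602014, plus strand) and *Sp9* (chr2:73271925-73284706, plus strand) flank the *Dlx1* and *Dlx2* pair on either side. *Slc32a1* (chr2:158610767-158615748, plus strand), *Gad2* (chr2:22622205-22693874, plus strand) and *Lhx6* (chr2:36081953-36105408, minus strand) lie elsewhere on the same chromosome.

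As KLF13 is a DNA-binding zinc finger protein of the Krüppel-like family, the 250 bases upstream of the RefSeq start are shown for the 3 members with a single RefSeq promoter that starts within 10 bases of the counted gene. Sequences are from RefSeq on GRCm38.p6, 5′ to 3′ on the strand of the gene. Capitals mark every match, on either strand, to the Klf motif in its 6 variants ACGCCC or ACACCC or ACTCCC or CCGCCC or CCACCC or CCTCCC, and neighbouring matches can share bases. *Dlx2* (chr2:71546755-71547004, minus strand) held 3 matches, *Sp9* (chr2:73271676-73271925, plus strand) held 4, and *Slc32a1* (chr2:158610508-158610757, plus strand) held 3.
Dlx2: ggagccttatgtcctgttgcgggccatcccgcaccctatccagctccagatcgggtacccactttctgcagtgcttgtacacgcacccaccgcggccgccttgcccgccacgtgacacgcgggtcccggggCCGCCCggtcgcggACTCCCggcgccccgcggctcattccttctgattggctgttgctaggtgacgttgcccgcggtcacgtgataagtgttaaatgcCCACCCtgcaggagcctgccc
Sp9: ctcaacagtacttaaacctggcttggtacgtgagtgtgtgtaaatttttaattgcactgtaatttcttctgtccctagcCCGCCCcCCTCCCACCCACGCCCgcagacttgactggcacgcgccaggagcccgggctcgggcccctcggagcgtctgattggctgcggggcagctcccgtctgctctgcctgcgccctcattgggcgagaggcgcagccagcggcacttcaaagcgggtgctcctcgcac
Slc32a1: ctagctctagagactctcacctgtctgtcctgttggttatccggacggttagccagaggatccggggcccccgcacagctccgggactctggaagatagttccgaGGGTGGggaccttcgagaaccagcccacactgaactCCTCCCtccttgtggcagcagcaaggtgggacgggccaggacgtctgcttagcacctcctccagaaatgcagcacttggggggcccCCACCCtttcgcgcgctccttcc
In *Sp9* all matches stood in a single cluster, in *Dlx2* they were spread over the part nearer to the start, and in *Slc32a1* the first of them stood on the opposite strand (GGGTGG). A RefSeq promoter of 300 bases was found for 7 of the 9 genes (9 windows, 3 of them for *Lhx6*), and all 9 windows held a Klf match. This is a description of letters, as 76.8% of 32851 promoters of the same length held such a match as well. The homeodomain core TAATTA stood in 0 of the 9 windows and in 5.29% of all promoters. No promoter of *Dlx5* or *Dlx6* was matched.

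All 9 lineage genes had higher levels in the knockout cultures, and 7 of them passed edgeR's quasi-likelihood test with a log2 fold change of 1 or more and an adjusted p of 0.05 or less (called higher). By the same criteria, 3.97% of the 18352 tested genes were called higher, and without the fold threshold 11.6% were higher, 12.2% were lower and 23.8% passed in either direction. The median log2 fold change was 1.85 over the 9 genes and -0.0037 over all tested genes. In 8 of the 9 genes every knockout library exceeded every control library, as it did in 18.3% of all tested genes. Higher values in these bulk libraries can stand for more cells of the lineage or for more RNA per cell, which cannot be told apart. The calls depended on the filter on low counts and on single libraries. Without the filter, which raised the number of tested genes to 34026, 0 of the 9 genes passed in edgeR (adjusted p = 0.0653 to 0.215, 9 at an unadjusted p of at most 0.05), whereas DESeq2, run with the filter, gave 8. With the filter, 0 of the 9 genes passed without knockout replicate 2 (7 at an unadjusted p of at most 0.05), 1 (*Gad2*) without knockout replicate 1, 4 (*Dlx1*, *Dlx2*, *Dlx5* and *Gad2*) without control replicate 3, 5 (the *Dlx* genes and *Gad2*) without knockout replicate 3, and 6 to 8 when control replicate 1, 2 or 4 was left out (6 without control replicate 1, which removed *Slc32a1*), while the direction was the same for each gene in every case.

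The 4 *Dlx* genes code for the homeodomain factors that define the lineage. *Dlx1*, active from ventral progenitors onwards, had 1424.5, 2069, 718 and 355 normalized counts in control replicates 1 to 4 and 5093, 7589 and 4436 in knockout replicates 1 to 3. The lowest knockout thus exceeded the highest control 2.14-fold, although the controls themselves spanned a 5.83-fold range. *Dlx1* had the highest log2 fold change of the 9 genes (2.32 ± 0.54 SE, 95% confidence interval 1.05 to 3.59, adjusted p = 0.0218), which corresponds to a 5.01-fold higher mean.

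*Dlx2*, its neighbour, which acts in the same progenitors, stood at 672, 904, 414 and 284 normalized counts in control cultures and at 1471, 2125 and 1419 in knockout cultures. The groups did not overlap (log2 fold change 1.56 ± 0.38 SE, adjusted p = 0.0244). The ratio of the *Dlx1* level per kb to the *Dlx2* level per kb was 1.12, 1.21, 0.918 and 0.662 among control and 1.83, 1.89 and 1.65 among knockout cultures. Accordingly, the ratio of this gene pair was higher in every knockout than in every control, whereas the ratios of *Dlx5* to *Dlx6*, of *Gad1* to *Gad2*, of *Dlx2* to *Gad1* and of *Slc32a1* to *Gad1* overlapped between the groups (5 ratios were computed, with no test).

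*Dlx5*, which follows *Dlx1* and *Dlx2* in the cascade as cells leave the cycle, stood at 446, 516, 178 and 151 normalized counts in control cultures and at 1058, 1408 and 1024 in knockout cultures (log2 fold change 1.85 ± 0.44 SE, adjusted p = 0.0227). *Dlx6*, the partner of *Dlx5*, had the lowest mean of the 4 *Dlx* genes also per kb of exon, at 208, 220, 84.6 and 65.5 normalized counts in control cultures and 419, 704 and 363 in knockout cultures (log2 fold change 1.78 ± 0.47 SE, adjusted p = 0.0321). In both genes control replicates 1 and 2 were high among the controls and replicates 3 and 4 low, and no control reached a knockout.

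Antisense transcripts overlap some of these genes. The counting is not stated to use strand, so that reads from a gene and its antisense partner in shared exons cannot be told apart. *Dlx1as* shares 335 of the 5396 exon bases of *Dlx1*, *Dlx6os2* shares 104 of the 2375 of *Dlx6*, and *Dlx6os1* shares 0. For *Sp9* the overlap with *Cir1* is 270 of 5044 exon bases, and for *Slc32a1* that with *Gm14205*, which had 0 counts in each library, is 697 of 2797. *Dlx6os1*, a long non-coding transcript that runs through the *Dlx5* and *Dlx6* region and was looked at after its values were seen, rose from 731 ± 445 to 2650 ± 255 normalized counts (log2 fold change 1.86, adjusted p = 0.0296).

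**Figure D1:**
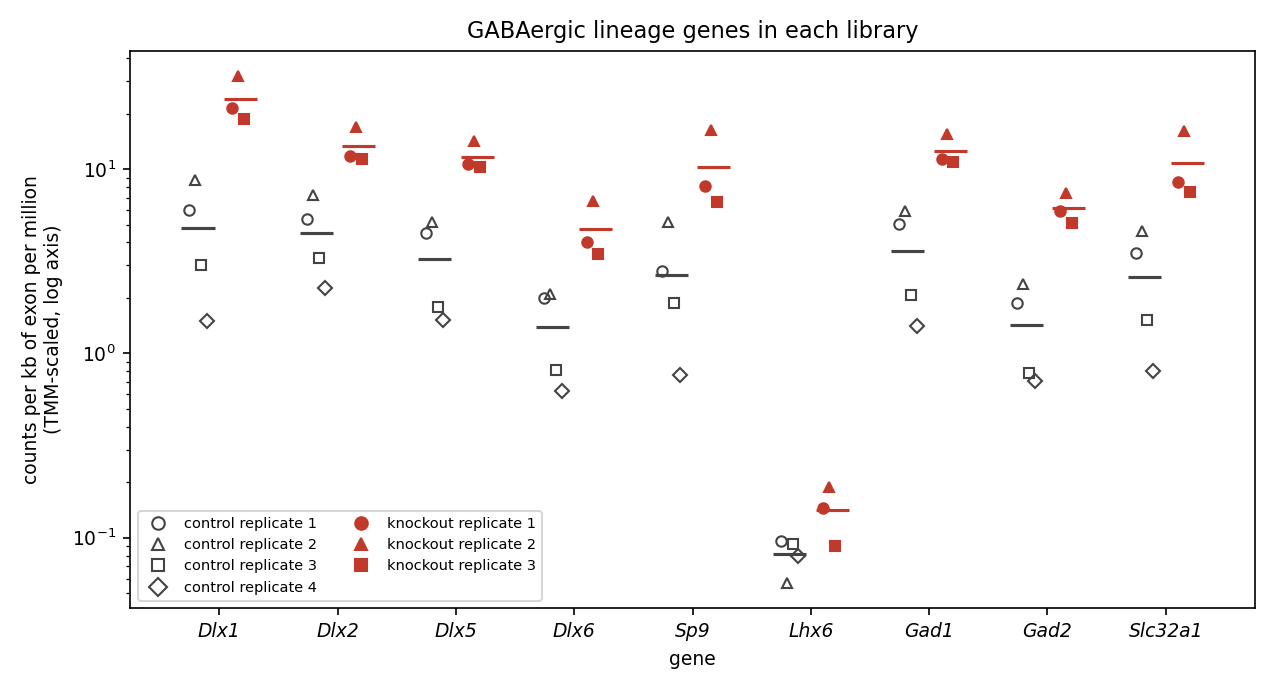
Level of each lineage gene in every library, in TMM-scaled RPKM on a log axis, with 4 control libraries (open symbols), 3 knockout libraries (filled symbols) and a line at each group mean. In 8 genes all knockouts lie above all controls, *Lhx6* lies far below the other genes in both groups, and control replicate 4 is the lowest control in 8 genes.

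*Sp9* and *Lhx6* are transcription factors of young GABAergic neurons. *Sp9*, which acts in young neurons of the ganglionic eminences that give rise to striatal and interneuron populations, stood at 624, 1148, 414 and 170 normalized counts in control cultures and at 1807, 3595 and 1466 in knockout cultures. The groups did not overlap, but control replicate 2 came close to the lowest knockout, which exceeded it 1.28-fold. With a log2 fold change of 1.96 ± 0.60 SE (95% confidence interval 0.56 to 3.36), *Sp9* missed the threshold (adjusted p = 0.0517). It passed when the replicate number was taken as a block (log2 fold change 1.67, adjusted p = 0.000808).

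*Lhx6*, which marks interneurons from the medial ganglionic eminence, was detected at low counts, with 15, 12, 17 and 18 raw counts in control and 17, 58 and 25 in knockout cultures. After normalization these became 20.3, 12.1, 19.4 and 16.8 for the controls and 30.7, 39.9 and 19.0 for the knockouts. Knockout replicate 3 lay within the range of the controls, and the difference did not pass the test (log2 fold change 0.81 ± 0.33 SE, 95% confidence interval 0.035 to 1.58, adjusted p = 0.122).

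The genes for GABA synthesis and packaging rose together with the *Dlx* genes. *Gad1* (GAD67, the decarboxylase that makes most cellular GABA) stood at 1689, 1996, 698 and 473 normalized counts in control cultures and at 3824, 5188 and 3669 in knockout cultures (log2 fold change 1.80 ± 0.48 SE, adjusted p = 0.0333). *Gad2* (GAD65, the decarboxylase found mainly at nerve terminals) stood at 483, 611, 202 and 183 in control cultures and at 1531, 1908 and 1321 in knockout cultures. It was the gene with the smallest adjusted p of the 9 (0.0139, log2 fold change 2.10 ± 0.43 SE), and its lowest knockout exceeded its highest control 2.16-fold.

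*Slc32a1* codes for the transporter that loads GABA and glycine into synaptic vesicles. It stood at 432, 568, 186 and 98.3 normalized counts in control cultures and at 1044, 1987 and 928 in knockout cultures, with a log2 fold change of 2.04 ± 0.58 SE (adjusted p = 0.0413). Again all knockouts lay above all controls, and control replicate 4 was the lowest library.

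Levels of different genes were compared per kb of exon, as TMM-scaled RPKM. In the controls the order was *Dlx1* (4.81 ± 3.21 RPKM), *Dlx2* (4.53 ± 2.20), *Gad1* (3.61 ± 2.21), *Dlx5* (3.24 ± 1.86), *Sp9* (2.66 ± 1.88), *Slc32a1* (2.61 ± 1.76), *Gad2* (1.43 ± 0.818) and *Dlx6* (1.38 ± 0.774), in which each gene differed from the next by less than the larger of their SDs, and *Lhx6* (0.0812 ± 0.0174) lay far below. In the knockouts *Dlx1* stood at the top with 24.0 ± 7.01 RPKM, apart from the next gene by more than either SD. *Dlx2* (13.3 ± 3.13), *Gad1* (12.6 ± 2.49), *Dlx5* (11.7 ± 2.13), *Slc32a1* (10.7 ± 4.72), *Sp9* (10.3 ± 5.15), *Gad2* (6.14 ± 1.15) and *Dlx6* (4.74 ± 1.75) followed. *Gad2* lay below *Sp9*, and *Dlx6* below *Gad2*, by more than the SD of *Gad2* but by less than that of *Sp9* and of *Dlx6*, respectively, and *Lhx6* (0.141 ± 0.0494) came last. *Dlx1* made up 18.9% ± 2.41 of the summed level of the 9 genes in the controls and 25.7% ± 0.487 in the knockouts, and the share of *Dlx2* was 19.9% ± 3.09 in the controls and 14.4% ± 0.872 in the knockouts.

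The 8 genes other than *Lhx6* moved together from library to library, whereas *Lhx6* was lowest in control replicate 2 among the controls. Among the controls, replicate 2 was the highest and replicate 4 the lowest in 8 genes, and among the knockouts replicate 2 was the highest and replicate 3 the lowest in all 9. Over the 7 libraries, the Pearson correlation of log2 CPM between pairs of these genes had a median of 0.990 (0.953 to 0.998) for the 28 pairs without *Lhx6*. After each group mean was subtracted, the median over the same pairs was 0.974 (0.892 to 0.994). With *Lhx6* (36 pairs), the lowest values were 0.574 and -0.085. These values describe 7 points that share libraries, depth and the difference between the groups.

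The genes with the pattern most like the mean of the 9 genes were ranked by the same correlation over the 7 libraries. *Prtn3*, *Mtfr1l*, *Kcnd2*, *Pcdha9*, *Pcp4*, *Zcchc12*, *Fam78b*, *Nsg2*, *Cadps* and *Gdap1* led the list, with r from 0.999 to 0.996. *Prtn3*, known as a protease gene of neutrophil granules, was also the first by deviations from the group means (r = 0.998), followed by *Cdh13*, *Nol4*, *Kcnd2*, *Mtfr1l*, *Zfp422*, *Gm44644*, *Ntm*, *Pcdha9* and *Camkv* (0.998 to 0.993). The magnitude of change differed among these genes. *Prtn3* rose with a log2 fold change of 2.08 (adjusted p = 0.0154) and the mitochondrial gene *Mtfr1l* with only 0.22 (adjusted p = 0.0418).

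Summed over the 9 genes, the level was 31.1, 41.4, 15.3 and 9.66 RPKM in control replicates 1 to 4 and 81.9, 125 and 74.0 in knockout replicates 1 to 3. The 22 pan-neuronal genes examined, which mark neurons of any transmitter type, summed to 355, 421, 336 and 297 RPKM for controls and to 592, 766 and 546 for knockouts. In percent of this neuronal sum, the lineage genes amounted to 8.78, 9.83, 4.54 and 3.25 for controls and to 13.8, 16.3 and 13.6 for knockouts. Thus both sums were higher in every knockout than in every control, and so was the lineage sum relative to this neuronal sum. The neuronal sum rests largely on a few abundant genes, led in the controls by *Elavl3* (61.6 RPKM), *Tubb3* (49.1), *Ncam1* (47.9) and *Gap43* (36.7), with log2 fold changes of -0.46, 0.72, 0.37 and 0.28. Other neuronal genes, picked here after their values were seen, had log2 fold changes as large as those of most lineage genes, such as *Dcx* with 2.43, *Snap25* with 2.12 and *Myt1l* with 2.04 (adjusted p = 0.0129, 0.00998 and 0.0157), so that the percentage does not compare the lineage with neuron genes in general.

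**Figure D2:**
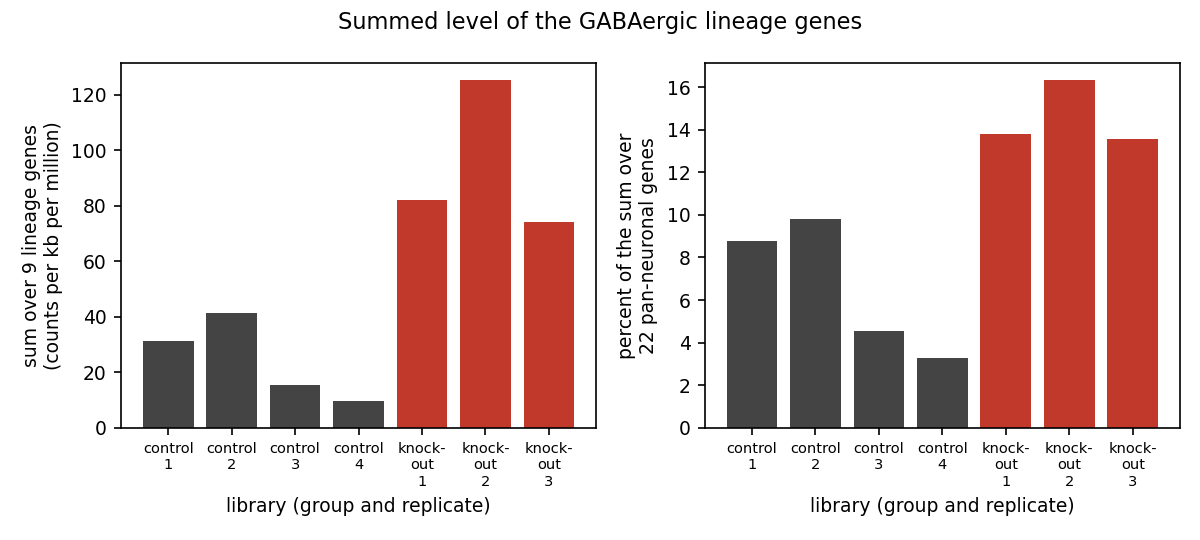
Summed level of the 9 lineage genes in each library, on the left in TMM-scaled RPKM and on the right in percent of the sum over 22 pan-neuronal genes. All 3 knockout libraries exceed all 4 control libraries in both panels, with 74.0 to 125 against 9.66 to 41.4 on the left and 13.6% to 16.3% against 3.25% to 9.83% on the right.

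Most pan-neuronal genes were higher in the knockouts. For this and each later list, the share over all tested genes at an adjusted p of 0.05 or less was 11.6% higher and 12.2% lower. Of 22 genes, all tested, 16 were higher with an adjusted p of 0.05 or less, the criterion for higher and lower in all lists that follow, and 0 lower (1 lower at an unadjusted p of at most 0.05, and at an adjusted p 0 by DESeq2, 2 with the replicate block and 1 without knockout replicate 2), at a median log2 change of 1.12. The migrating neuroblast gene *Dcx* rose from 4636 to 24961 normalized counts (log2 fold change 2.43, adjusted p = 0.0129), the endosomal gene *Nsg2* by 1.48 (adjusted p = 0.0167), the RNA-binding gene *Celf4* by 1.93 (adjusted p = 0.0350) and the tubulin gene *Tubb3* by 0.72 on the log2 scale (adjusted p = 0.0163). The dendritic gene *Map2* and the adhesion gene *Ncam1* rose by 0.73 and 0.37 (adjusted p = 0.00479 and 0.0259). *Elavl3* and *Gap43* did not pass (log2 fold change -0.46 and 0.28, adjusted p = 0.0977 and 0.193). Without knockout replicate 2, 7 of the 22 genes were higher, and *Dcx*, *Tubb3* and *Map2* passed with each single library left out.

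Most transcription factors of ventral forebrain patterning and of interneuron development did not pass the test. Of 24 listed, 22 were tested, 4 were higher and 1 lower, at a median log2 change of 0.11, beside 11.6% higher and 12.2% lower among all tested genes. *Sp8*, the close relative of *Sp9* in the dorsal lateral and caudal eminences, stood at 605, 881, 298 and 155 normalized counts in control cultures and at 1943, 3079 and 1728 in knockout cultures (log2 fold change 2.22 ± 0.54 SE, adjusted p = 0.0252). The groups did not overlap, and control replicates 2 and 4 were again the highest and the lowest. *Meis2*, a factor of striatal and olfactory bulb neurons, rose from 3927 to 11684 normalized counts (log2 fold change 1.57, adjusted p = 0.0141), *Tshz1*, a factor of olfactory bulb interneurons, from 5972 to 10960 (0.88, adjusted p = 0.00889) and the progenitor factor *Gsx1* from 349 to 684 (0.97, adjusted p = 0.0304). *Prox1*, which is expressed in interneurons and in oligodendroglia, fell from 2406 to 1202 normalized counts (adjusted p = 0.000518). *Sox6* and *Olig2*, which OPC share with ventral progenitors, did not pass (0.23 and -0.04, adjusted p = 0.117 and 0.887). Without knockout replicate 2, 1 gene of this list (*Tshz1*) was higher, and without control replicate 2 it was 7. *Tshz1* and *Prox1* passed with each single library left out.

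Among genes of interneuron subtypes, 16 of 20 were tested, 7 were higher and 2 lower, at a median log2 change of 0.59. The calretinin gene *Calb2*, a marker of interneurons from the caudal eminence and of olfactory bulb, stood at 1114, 1333, 492 and 209 normalized counts in control cultures and at 6158, 8752 and 5663 in knockout cultures. All knockouts were well above the controls (log2 fold change 3.13 ± 0.57 SE, adjusted p = 0.00922). The neuregulin receptor gene *Erbb4* (0.66, adjusted p = 0.0190), the synaptic gene *Elfn1* (1.04, adjusted p = 0.0194) and the chemokine receptor gene *Ackr3* (0.53, adjusted p = 0.0270) were higher, too. The other three genes that were higher lie outside the rule for named genes and were picked after their values were seen: *Nos1* (2.61, adjusted p = 0.00441), *Sst* (1.55, adjusted p = 0.00923) and *Htr3a* (1.19, adjusted p = 0.0321). *Reln* and *Kit* fell (log2 fold change -0.43 and -1.37, adjusted p = 0.0143 and 0.00142), and *Nxph1* and *Cxcr4* did not pass (-0.26 and 0.16, adjusted p = 0.0596 and 0.837). *Vip* was at no more than 3 counts in every library. Without knockout replicate 2, 3 genes of the list were higher, and without knockout replicate 1 they were 4. *Calb2*, *Nos1*, *Sst*, *Reln* and *Kit* passed with each single library left out.

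Genes of striatal projection neurons, the GABAergic output neurons of the striatum, were higher in 6 of 14 cases, all of them tested, and lower in 0 (0 also at an unadjusted p of at most 0.05 and by DESeq2). The median log2 fold change was 1.06. *Pde10a*, the striatal phosphodiesterase gene, rose by 0.70 (adjusted p = 0.00350) and the retinoid receptor gene *Rxrg* by 0.95 on the log2 scale (adjusted p = 0.0258). The receptor genes *Adora2a* and *Gpr6* (2.04 and 1.86, adjusted p = 0.0476 and 0.00621) and the enkephalin gene *Penk* (1.36, adjusted p = 0.0395) rose from low levels, with control means of 8.48 normalized counts for *Gpr6* to 24.5 for *Penk*. *Foxp1* and *Foxp2* did not pass (-0.27 and 1.21, adjusted p = 0.413 and 0.111). This count fell to 2 or 3 when control replicate 1, 3 or 4 or knockout replicate 1 or 2 was left out, and *Pde10a* and *Gpr6* passed in each case.

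For the release and reuptake of GABA, 7 of 9 genes were tested, 3 were higher and 0 lower (1 lower at an unadjusted p of at most 0.05, and 0 by DESeq2 at an adjusted p), at a median log2 change of 0.29. Among them were the GABA transporter gene *Slc6a11* (GAT3, which is mainly astrocytic, 1.59, adjusted p = 0.0231) and the glutamine transporter gene *Slc38a1* (0.72, adjusted p = 0.0105). *Abat*, the GABA-degrading transaminase gene, and *Slc38a2* did not pass (-0.14 and -0.16, adjusted p = 0.316 and 0.125). Without knockout replicate 2, 1 gene (*Slc38a1*) was higher.

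Genes of other neuronal lineages were examined in the same way. Of 16 dorsal glutamatergic genes only 8 passed the filter on low counts. The levels per kb of all 16 listed genes summed to 3.44 to 4.23 in the controls and 3.38 to 4.70 in the knockouts, ranges that overlapped. The vesicular glutamate transporter gene *Slc17a6* and the cortical factor *Tbr1* were higher at low levels, *Slc17a6* rising from 9.91 to 26.4 normalized counts (adjusted p = 0.0395) and *Tbr1* from 10.5 to 24.6 (adjusted p = 0.0435). *Emx2* and *Bhlhe22* did not pass (0.27 and -0.35, adjusted p = 0.121 and 0.420). With the replicate block, 0 genes of this list were higher (1 at an unadjusted p of at most 0.05, and 2 by DESeq2 without the block), and 0 or 1 were higher when any library was left out, 0 of them without control replicate 2 or 3 or knockout replicate 1 or 2.

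Genes of the inhibitory lineages of hindbrain and midbrain were higher in 0 of 7 tested cases (0 at an unadjusted p of at most 0.05 and 0 by DESeq2). They were lower in 2 (1 by DESeq2, with the replicate block, or with any single library left out), at a median log2 change of -0.59. Among all tested genes 11.6% were higher and 12.2% lower, and with 7 genes a count of 0 higher is close to that share. Of the 15 listed genes, 5 were at no more than 3 counts in every library, among them the cerebellar factor *Ptf1a* and the glycine transporter gene *Slc6a5*. *En2*, which patterns midbrain and cerebellum, fell from 818 to 291 normalized counts (log2 fold change -1.48, adjusted p = 0.00387), and passed with each library left out. *Tfap2a* was lower, too (-0.96, adjusted p = 0.0422), but lost its call with any single library left out. *Tal1* and *Pax2* did not pass (-0.53 and -0.24, adjusted p = 0.487 and 0.734). Of 13 genes of cholinergic and monoaminergic lineages, 4 were tested. The choline transporter gene *Slc5a7* was higher (1.40, adjusted p = 0.0233), the vesicular monoamine transporter gene *Slc18a2* was lower (-0.36, adjusted p = 0.0489), and *Tph2* and *Hdc* did not pass (-0.0085 and 0.27, adjusted p = 0.980 and 0.688). Both *Slc5a7* and *Slc18a2* lost their calls with the replicate block, and with single libraries left out *Slc18a2* lost it in each case and *Slc5a7* without control replicate 2 or 4 or knockout replicate 1 or 3.

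**Figure D3:**
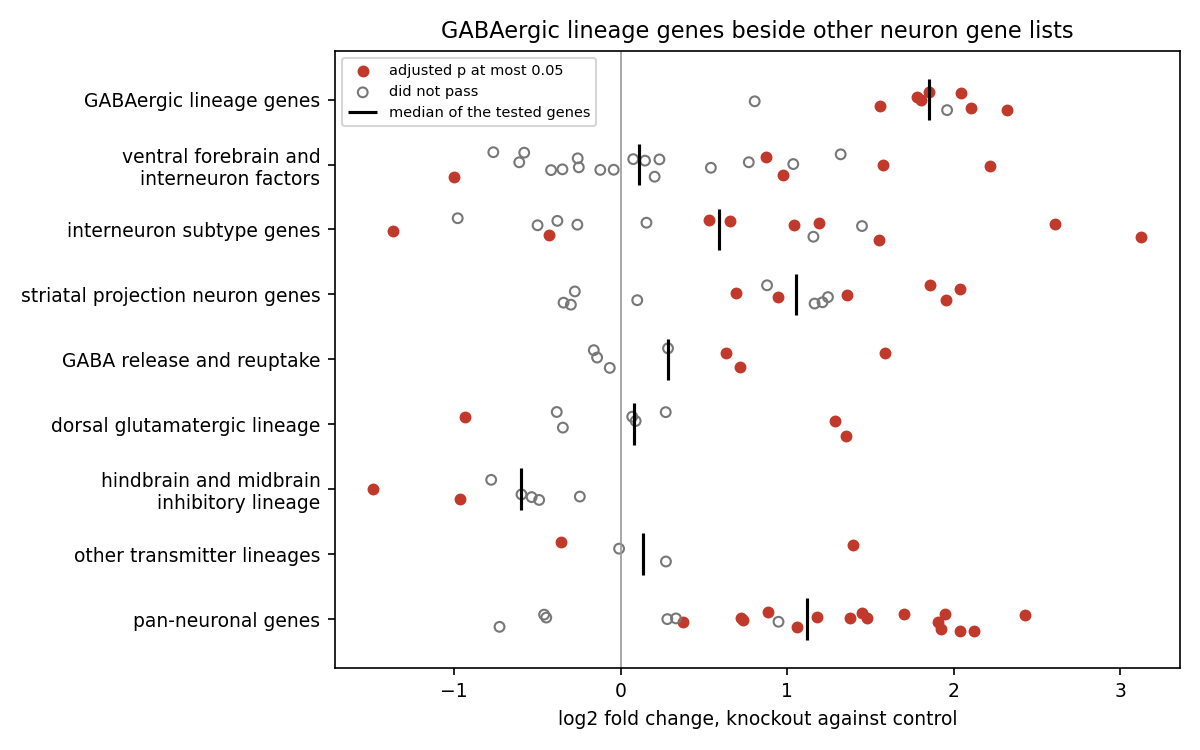
Log2 fold change (knockout against control) of every tested gene of the GABAergic lineage and of 8 other neuron gene lists, 1 point per gene, filled where the adjusted p was at most 0.05, with a line at the median of each list. The lineage genes lie between 0.81 and 2.32 with a median of 1.85, whereas the other lists reach below 0 and have medians between -0.59 and 1.12.

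Markers of further cell types were examined beside these results. Of 10 astrocyte genes 8 were higher (summed level 1088 to 1251 in controls and 1321 to 1505 RPKM in knockouts), but 5 without knockout replicate 3 and 2 without knockout replicate 2. Of 8 OPC genes 3 were higher, but 1 without knockout replicate 1 or 2. None of 8 microglia genes passed in edgeR (0 also at an unadjusted p of at most 0.05 and 0 by DESeq2), with summed levels of 76.3 to 331 in controls (control replicate 3 the highest) and 75.5 to 167 in knockouts. Endothelial genes were near 0 (1.18 to 3.31 in controls and 0.940 to 1.45 in knockouts, with *Cldn5* at no more than 3 counts), with 1 of 4 tested genes lower, but 0 without control replicate 1, 3 or 4 or knockout replicate 1 or 2. Of 8 fibroblast and mural cell genes 1 was lower (summed level 94.3 to 262 in controls and 49.4 to 95.9 in knockouts). This count was 4 with the replicate block, 5 by DESeq2, 5 without control replicate 2, and 0 without control replicate 1, 3 or 4 or knockout replicate 1 or 2. What part these cell types had in the difference of the lineage genes was not tested.

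Since 4 of the 9 genes lie close together on chromosome 2, their neighbours were examined as well. The stretch from *Gad1* to *Sp9* (chr2:70553072-73284706, 2.73 Mb) holds 55 annotated genes, of which 23 were tested. Among the 19 tested genes other than the lineage genes, 5 passed as higher and 3 as lower, at a median log2 change of -0.08. This count of 8 fell to 5 without any single knockout library. The largest rises among them were those of the exchange factor gene *Rapgef4* (1.53, adjusted p = 0.00601) and of the MYC target gene *Cdca7* (1.19, adjusted p = 0.00730). *Pdk1* and *Cybrd1* were higher by 0.50 and 0.65 on the log2 scale (adjusted p = 0.00664 and 0.00878), and the Golgi gene *Gorasp2* fell by 0.25 (adjusted p = 0.011).

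Besides *Dlx1as*, the nearest tested genes did not pass. On one side *Metap1d* and *Hat1* had log2 fold changes of 0.08 and -0.19 (adjusted p = 0.609 and 0.0751), and on the other side *Itga6* had 0.32 (adjusted p = 0.461). *Dlx1as*, which runs antisense through *Dlx1*, was higher (from 69.4 ± 23.4 to 144 ± 16.0 normalized counts, log2 fold change 1.05, adjusted p = 0.0297). Over all 1398 tested genes of chromosome 2 without the lineage genes, 12.7% were higher and 13.1% lower, at a median log2 change of -0.0078.

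**Figure D4:**
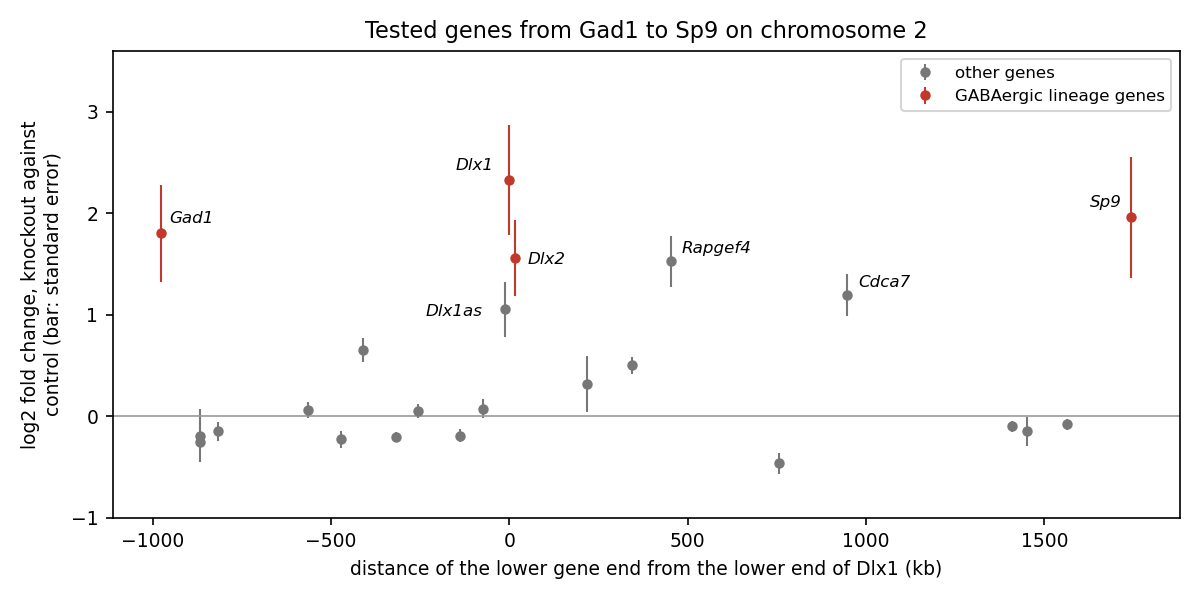
Log2 fold change with its standard error for the 23 tested genes from *Gad1* to *Sp9* on chromosome 2, plotted by the distance in kb of their lower end from that of *Dlx1*. The 4 lineage genes lie between 1.56 and 2.32, and the 19 other genes between -0.46 and 1.53.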

How the data were processed

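RNA from 4 control and 3 *Klf13* knockout cultures was sequenced in paired-end mode by the authors (NEBNext Ultra II RNA libraries), and the deposited files hold raw read counts per gene. According to the methods and processing notes, the authors trimmed reads with Trimmomatic 0.36, mapped them with STAR 2.5.2b to GRCm38 and counted them with featureCounts of Subread 1.5.2. The strand setting of the counting is not given in the sources used here.

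Counts were tested with edgeR 4.0.16 in R 4.3.3 (filterByExpr by group, TMM, robust quasi-likelihood test, Benjamini-Hochberg adjustment over 18352 tested genes). Calls needed an adjusted p of 0.05 or less with a log2 fold change of 1 or more in size. Levels per kb are TMM-scaled RPKM computed from the counts and the exon lengths in the files. Totals of 24507471 to 59596479 counts put 1919 to 35708 counts of a library on the 9 genes. Symbols matched 48970 of 49315 gene identifiers. The tests were tried on simulated data.

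The members, lists and tests were chosen with earlier results of these data known. Named genes were *Klf13*, the 9 members, per list the genes that passed (the 6 of highest mean count where more passed) and the 2 most abundant that did not, up to 5 genes of the *Gad1* to *Sp9* stretch by smallest p, and the 10 most similar genes by either correlation. A few genes that the rule names are not reported here. Genes named outside this rule are marked as such or stand for an overlap or a neighbour. Replicate numbers come from the labels. Deviations from the group means correlated at 0.113, 0.463 and 0.168 between same-numbered control and knockout libraries (and at -0.529 to 0.197 between others). Only the value of replicate 2 lay above all those of unlike numbers, so these values do not establish that the numbers pair the libraries. The reported test used no pairing, and the replicate block served only as an alternative. Alternatives were DESeq2 1.42.0, other scalings and filters, the replicate block, each library left out, and the ribosomal RNA share as a covariate.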

Additional observations from a re-analysis of the deposited data

Results flagged for a closer look

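The summed level of the 8 microglia genes in the controls stood out by 1 library. Control replicate 3 lay at 331 RPKM, with the other controls from 76.3 upwards, and its gap to the nearest control was 0.9133 of the range of the 4 controls, above Dixon's 95% critical value for 4 samples. Of 24 control groups of values looked at (the 9 lineage genes, 14 gene lists and the lineage share), this was the only group above that value, and chance alone puts about 1 in 20 groups above it. In this library the lineage genes were the second lowest of the controls in their summed level (15.3 RPKM). Without control replicate 3, 4 of the 9 lineage genes were called higher.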

How the results depend on the processing

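Under 16 alternatives no lineage gene changed direction. The 8 genes other than *Lhx6* kept log2 fold changes between 1.35 and 2.79, and *Lhx6* (0.50 to 1.07) passed under none. Of the 9 genes, 7 were called higher. This count, with and without the fold threshold, was 0 to 8 when each library was left out in turn and 0 without a filter on low counts (9 at an unadjusted p of at most 0.05), where adjusted p was 0.0653 to 0.215. DESeq2 was run only with the filter and gave 8. The other settings gave 7 or 8. Without knockout replicate 2, all genes higher at an adjusted p of at most 0.05 fell from 2122 to 850.

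With the replicate block, 8 lineage genes were called higher, *Sp9* among them, 0 dorsal glutamatergic genes were higher in place of 2, and 0 genes of other transmitter lineages in place of 1. The block also gave 6 higher ventral forebrain factors in place of 4, 17 pan-neuronal genes in place of 16, 5 striatal genes in place of 6, 7 astrocyte genes in place of 8 and 2 OPC genes in place of 3. Of the lower genes, it gave 4 in place of 1 in the fibroblast and mural cell list, 2 in place of 0 in the pan-neuronal list, 1 in place of 0 in the astrocyte list, 1 in place of 2 in the hindbrain and midbrain list and 0 in place of 1 in other transmitter lineages. Without a low-count filter, higher genes numbered 2 in the ventral forebrain factors (4 as reported), 0 in the dorsal list and 8 in the pan-neuronal list (16). With at least 10 counts required in every library, 0 dorsal and 0 other transmitter genes were higher. Leaving out each library gave 1 to 3 GABA release and reuptake genes (3 as reported), 1 to 7 ventral forebrain factors, 3 to 8 interneuron subtype genes (7), 2 to 5 striatal genes (6), 0 to 1 dorsal genes, 0 to 1 other transmitter genes, 7 to 18 pan-neuronal genes and, for both directions in the *Gad1* to *Sp9* stretch, 5 to 9 genes (8). Of 69 genes of all lists that passed, 31 passed with each library left out, 33 without knockout replicate 2, and 0 changed direction. The cause of these shifts was not tested. The ribosomal RNA share as a covariate, chosen after seeing the data, gave 8 lineage genes. *Lhx6* had 12 to 58 raw counts in a library, the fewest of the 9 genes.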
